A study of Mus musculus with 9 samples.

Results

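Cholesterol and fatty acid synthesis was described in primary mammary tumours of the mouse through 31 listed genes, 20 of a sterol branch and 11 of a fatty acid branch. The genes were chosen by name, and each was read from its brightest probe set, the group of array probes designed for a transcript. Of the 31 listed genes 30 were measured, among 18194 genes that had a probe set of their own, and Acat2 of the sterol branch was not analysed here. All 30 passed the filter on dim genes that left 13410 genes for testing. The tumours came from 3 mouse mammary carcinoma lines, labelled 4T1/CMVLUC, 66cl4/CMVLUC and 67NR/CMVLUC, so that all groups share the CMVLUC suffix. Each line was grown in 3 female BALB/c mice of 7 to 9 weeks, which received 1000000 viable cells in a mammary gland. Tumours were taken on day 15, tumour areas were cut from sections by laser capture, and the RNA of each mouse went onto 1 Affymetrix array. The lines are known to differ in spread from the mammary gland: 4T1 is widely metastatic, 66cl4 reaches the lung, and 67NR forms primary tumours with little or no spread. A group is 1 line, so that a difference between groups is one between these lines and not between classes of metastatic capacity.

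Cells build cholesterol from acetyl-CoA through the mevalonate pathway, which passes by way of isoprenoids, squalene and lanosterol, and they build fatty acids from the same precursor through malonyl-CoA. The transcription factor SREBP-2, made from Srebf2, drives mainly the sterol genes, and SREBP-1, made from Srebf1, drives mainly the fatty acid genes. When membranes hold enough sterol, the INSIG proteins keep both factors in the endoplasmic reticulum, and when sterol is short the factors are carried to the Golgi, cut and sent to the nucleus. Proliferating tumour cells use both pathways for new membranes.

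Values are log2 signals as the authors deposited them, and a difference of 1 on this scale is a 2-fold change in signal. Differences are given with the standard error of the limma fit over all 9 arrays, with Benjamini-Hochberg adjusted p-values over the 13410 genes, and a gene was called at an adjusted p under 0.05. Nothing in the labels says more than that each array was 1 mouse, and each test rests on the spread among 3 mice per line. Pairs of arrays within a line had correlations of 0.972 to 0.979 in 4T1 tumours, 0.984 to 0.989 in 66cl4 tumours and 0.986 to 0.991 in 67NR tumours. Array medians lay between 5.51 and 5.58. The added hybridization controls averaged 10.30 to 10.72 on 4T1 arrays, 10.64 to 11.10 on 66cl4 arrays and 10.87 to 11.47 on 67NR arrays, and their part in the results below was not tested beyond a fit that holds them as a covariate. The numbers in the array file labels were all higher for 67NR than for the other lines, so that a trend along these numbers and a difference from 67NR cannot be fully told apart. In captured areas of tissue, fewer cells of a type and less RNA per cell cannot be told apart.

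The sterol branch was higher in 4T1 tumours and in 66cl4 tumours than in 67NR tumours along nearly its whole length, from Hmgcs1 at the entry to Ebp near the end. In 4T1 against 67NR tumours 18 of 19 members were higher and 1, Dhcr7, was lower, where 39.9% of all genes tested were called, 19.4% higher and 20.5% lower. The median difference of the 19 members was 1.20, against a median of -0.03 over all genes. In 66cl4 against 67NR tumours 15 members were higher, 1, Pmvk, was lower and 3 were not called, where 36.1% of all genes were called, 20.0% higher and 16.0% lower. Their median difference was 0.95, against 0.01 over all genes. In 4T1 against 66cl4 tumours 10 members were higher, 1, Dhcr7, was lower and 8 were not called, where 41.3% of all genes were called, 17.9% higher and 23.4% lower. Here the median was 0.47, against -0.03 over all genes. The comparisons with 67NR share its 3 arrays. Higher in both 4T1 and 66cl4 tumours than in 67NR tumours were 14 of 19 members, against 8.29% of all genes, and 6 of these (Hmgcs1, Fdps, Fdft1, Cyp51, Msmo1 and Srebf2) were also higher in 4T1 than in 66cl4 tumours. The means ran 4T1 above 66cl4 above 67NR in 14 of 19 members, an order that 15.4% of all genes had. Called in at least 1 comparison were 19 of 19 sterol and 10 of 11 fatty acid members, against 61.3% of all genes, and in all 3 comparisons 8 sterol and 2 fatty acid members, against 9.46% of all genes.

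**Figure D1:**
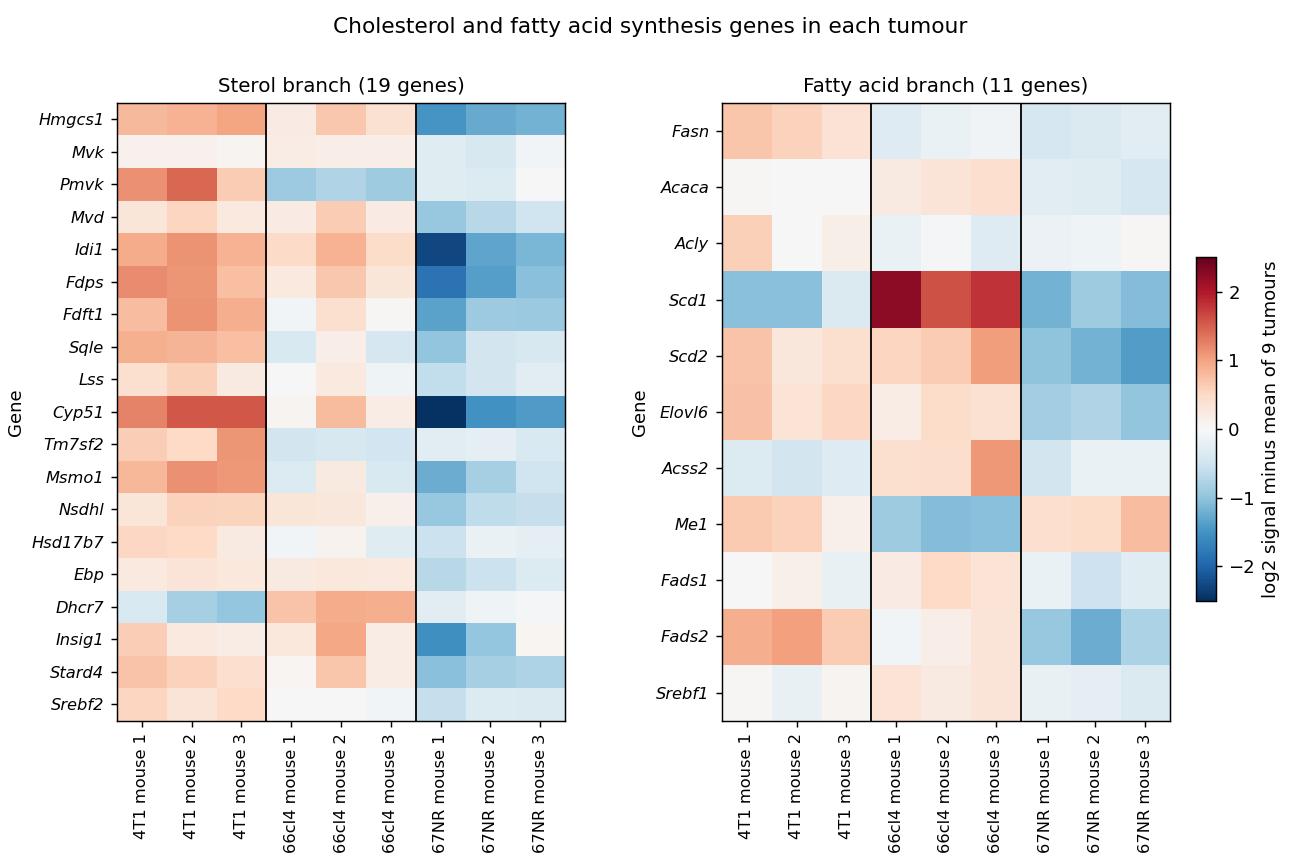
Log2 signal of each gene in each tumour, minus the gene's mean over the 9 tumours, as a colour scale from blue (below the mean) to red (above it); genes run down the page in pathway order and mice run across it by line, with 19 sterol genes on the left and 11 fatty acid genes on the right. Most sterol genes are blue in all 3 67NR mice and red in all 3 4T1 mice. Dhcr7, blue in the 4T1 mice, departs from this, as do Pmvk and Insig1 in 67NR mouse 3. Among the fatty acid genes Scd1 is red only in the 3 66cl4 mice and Me1 is blue only there.

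Promoter letters are shown for the members whose regulation the pathway is known by: Hmgcs1 at the entry, Cyp51 with the largest difference from 67NR of the members, the feedback gene Insig1, and Fasn of the fatty acid branch. The windows are RefSeq's of build GRCm38.p6, from 250 bases before to 50 bases after an annotated start, printed 5′ to 3′ on the gene's strand. Capitals mark matches on either strand to TCACNCCAC, a sterol regulatory element, to CACGTG, an E-box, or to CCAAT, the box bound by NF-Y, which reads ATTGG where it lies on the opposite strand. The Hmgcs1 window is chr13:119690101-119690400 on the plus strand.
Hmgcs1: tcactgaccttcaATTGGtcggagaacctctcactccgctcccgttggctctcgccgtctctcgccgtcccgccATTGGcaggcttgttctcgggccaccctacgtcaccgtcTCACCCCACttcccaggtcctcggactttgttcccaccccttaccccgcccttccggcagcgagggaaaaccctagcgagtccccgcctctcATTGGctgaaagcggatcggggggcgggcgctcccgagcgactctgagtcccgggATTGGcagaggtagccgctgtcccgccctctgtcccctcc
The Cyp51 window is chr5:4104648-4104947 on the minus strand.
Cyp51: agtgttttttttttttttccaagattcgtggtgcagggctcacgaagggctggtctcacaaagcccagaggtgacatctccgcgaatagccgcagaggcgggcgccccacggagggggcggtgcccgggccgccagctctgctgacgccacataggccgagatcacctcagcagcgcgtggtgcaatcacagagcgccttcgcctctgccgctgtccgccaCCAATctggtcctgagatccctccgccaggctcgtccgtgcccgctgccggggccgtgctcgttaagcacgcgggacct
The Insig1 window is chr5:28071162-28071461 on the plus strand.
Insig1: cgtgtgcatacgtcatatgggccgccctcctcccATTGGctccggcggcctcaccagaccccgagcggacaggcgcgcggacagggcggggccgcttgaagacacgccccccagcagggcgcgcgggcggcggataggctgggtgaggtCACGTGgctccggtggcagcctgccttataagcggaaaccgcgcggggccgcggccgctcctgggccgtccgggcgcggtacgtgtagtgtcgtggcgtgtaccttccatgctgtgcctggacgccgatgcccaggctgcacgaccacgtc
The Fasn window is chr11:120824498-120824797 on the minus strand.
Fasn: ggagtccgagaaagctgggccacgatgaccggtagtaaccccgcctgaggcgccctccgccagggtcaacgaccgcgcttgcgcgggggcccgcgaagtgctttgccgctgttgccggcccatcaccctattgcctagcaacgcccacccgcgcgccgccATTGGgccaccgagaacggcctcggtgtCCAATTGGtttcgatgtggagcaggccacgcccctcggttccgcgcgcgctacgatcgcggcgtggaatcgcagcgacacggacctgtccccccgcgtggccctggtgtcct

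The Hmgcs1 window held 1 match to TCACNCCAC, which starts at position -137 from the annotated start, and 4 CCAAT boxes, all on the opposite strand. The Cyp51 window held 1 CCAAT box, the Insig1 window held 1 E-box and 1 CCAAT box, and the Fasn window held 3 CCAAT boxes, of which 2 overlap on opposite strands. Windows were given for 16 of 20 sterol genes (19 windows) and 8 of 11 fatty acid genes (11 windows), beside 32851 windows in the whole table. A CCAAT box stood in 15 of 19 sterol windows (78.9%) and 6 of 11 fatty acid windows (54.5%), against 37.4% of all windows. At least 2 CCAAT boxes stood in 9 sterol windows (47.4%) and 1 fatty acid window (9.09%), against 11.7% of all. The sterol regulatory element matched in 1 sterol window (5.26%) and in 0 fatty acid windows, against 1.24% of all, and the E-box matched in 3 sterol windows (15.8%) and in 0 fatty acid windows, against 7.15% of all. These are letters in a short window and not binding, and an element outside the window or with other letters is not counted.

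The early steps, from acetyl units to the isoprenoid farnesyl diphosphate, held some of the largest differences. Hmgcs1, which makes HMG-CoA, read 10.68, 10.74 and 10.84 in 4T1 tumours and 10.06, 10.54 and 10.24 in 66cl4 tumours, against 8.38, 8.61 and 8.68 in 67NR tumours. Every 4T1 and 66cl4 mouse lay above every 67NR mouse. The difference from 67NR was 2.19 ± 0.14 in 4T1 tumours (4.58-fold, adjusted p = 2.6e-06) and 1.73 ± 0.14 in 66cl4 tumours (3.31-fold, adjusted p = 1.82e-05). Idi1, which interconverts the isoprenoid building blocks, read 9.55, 9.75 and 9.49 in 4T1 and 9.10, 9.50 and 9.09 in 66cl4 tumours, against 6.36, 7.31 and 7.49 in 67NR tumours. The 67NR mice were spread over more than 1 log2 unit, and all of them lay below the others. Idi1 was higher than in 67NR by 2.54 ± 0.26 in 4T1 tumours (5.83-fold, adjusted p = 5.44e-05) and by 2.18 ± 0.26 in 66cl4 tumours (4.53-fold, adjusted p = 0.000191). Fdps, farnesyl diphosphate synthase, read 10.18, 10.10 and 9.75 in 4T1 and 9.24, 9.68 and 9.31 in 66cl4 tumours, against 7.15, 7.63 and 7.96 in 67NR tumours. Again no 67NR mouse reached the other lines, with differences of 2.43 ± 0.21 in 4T1 tumours (5.40-fold, adjusted p = 1.79e-05) and 1.83 ± 0.21 in 66cl4 tumours (3.55-fold, adjusted p = 0.000148). With the mean of its probe sets in place of the brightest these were 1.25 (adjusted p = 3.64e-05) and 0.89 (adjusted p = 0.000408).

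The enzymes between HMG-CoA and the isoprenoids differed less from 67NR, and Pmvk had another order of lines than its neighbours. Mvk, mevalonate kinase, read 7.86, 7.87 and 7.83 in 4T1 and 7.94, 7.92 and 7.93 in 66cl4 tumours, against 7.45, 7.36 and 7.69 in 67NR tumours. It was higher than in 67NR by 0.36 ± 0.10 in 4T1 tumours (adjusted p = 0.0219) and by 0.43 ± 0.10 in 66cl4 tumours (adjusted p = 0.00997). Both calls ended with the mean of its probe sets (0.24 each, adjusted p = 0.082 and 0.0796), and its other probe set gave 0.12 and 0.06, neither called. Pmvk, which adds the next phosphate, read 8.07, 8.36 and 7.57 in 4T1 tumours and 6.01, 6.17 and 6.03 in 66cl4 tumours, against 6.63, 6.58 and 6.93 in 67NR tumours. The 3 lines did not overlap, with 4T1 highest and 66cl4 lowest. Against 67NR tumours Pmvk was higher in 4T1 by 1.28 ± 0.19 (2.44-fold, adjusted p = 0.000467) and lower in 66cl4 by -0.64 ± 0.19 (adjusted p = 0.0221), and it was higher in 4T1 than in 66cl4 by 1.93 ± 0.19 (3.81-fold, adjusted p = 3.5e-05). Mvd, the decarboxylase that yields isopentenyl diphosphate, read 7.23, 7.47 and 7.17 in 4T1 and 7.14, 7.56 and 7.14 in 66cl4 tumours, against 5.98, 6.24 and 6.43 in 67NR tumours. Its differences from 67NR were nearly equal, 1.07 ± 0.16 in 4T1 (adjusted p = 0.000562) and 1.06 ± 0.16 in 66cl4 tumours (adjusted p = 0.000704). Among these early genes the 4T1 minus 66cl4 difference was called for Hmgcs1 (0.47 ± 0.14, adjusted p = 0.0224) and Fdps (0.61 ± 0.21, adjusted p = 0.0429), and missed the threshold for Mvk, Mvd and Idi1. Without any one of 4T1 mice 2 and 3 and 66cl4 mice 1 and 3 the Hmgcs1 call ended, at 0.36 to 0.47 and adjusted p of 0.0517 to 0.0834. The Fdps call ended without 4T1 mouse 1 or 2, 66cl4 mouse 1 or 3 or 67NR mouse 2, at 0.52 to 0.61 and adjusted p of 0.0621 to 0.13. The 4T1 minus 67NR call of Mvk ended without 4T1 mouse 2 or 67NR mouse 1 or 2 (0.29 to 0.35, adjusted p 0.0584 to 0.0891), and the 66cl4 minus 67NR call of Pmvk ended without 66cl4 mouse 1 or 3 or 67NR mouse 3 (-0.62 to -0.54, adjusted p 0.06 to 0.0825).

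From squalene synthesis to lanosterol the means of the genes ran 4T1 above 66cl4 above 67NR, but only Fdft1 was called in all 3 comparisons. Fdft1, squalene synthase, read 9.29, 9.64 and 9.42 in 4T1 and 8.44, 8.92 and 8.55 in 66cl4 tumours, against 7.17, 7.61 and 7.59 in 67NR tumours. The 3 lines did not overlap, and all differences were called: 1.99 ± 0.17 for 4T1 minus 67NR (3.98-fold, adjusted p = 1.54e-05), 1.18 ± 0.17 for 66cl4 minus 67NR (2.26-fold, adjusted p = 0.000519) and 0.81 ± 0.17 for 4T1 minus 66cl4 (adjusted p = 0.00359). Of the other Fdft1 probe sets 1 gave 1.88 for 4T1 minus 67NR and 2 dim ones gave -0.08 and 0.07, neither called. With the mean of the probe sets the differences from 67NR were 0.97 in 4T1 tumours (adjusted p = 0.000221) and 0.52 in 66cl4 tumours (adjusted p = 0.00848). Sqle, squalene epoxidase, read 9.97, 9.94 and 9.83 in 4T1 and 8.70, 9.25 and 8.67 in 66cl4 tumours, against 8.11, 8.62 and 8.69 in 67NR tumours. All 4T1 mice stood above the rest, while 66cl4 and 67NR mice overlapped. Sqle was higher in 4T1 tumours than in 67NR by 1.44 ± 0.19 (adjusted p = 0.000267) and than in 66cl4 by 1.04 ± 0.19 (adjusted p = 0.00181), and the 66cl4 minus 67NR difference of 0.40 ± 0.19 was not called (adjusted p = 0.133). Lss, lanosterol synthase, read 8.35, 8.54 and 8.16 in 4T1 and 7.95, 8.19 and 7.84 in 66cl4 tumours, against 7.33, 7.48 and 7.66 in 67NR tumours. Both differences from 67NR were called, 0.86 ± 0.14 in 4T1 (adjusted p = 0.00101) and 0.50 ± 0.14 in 66cl4 tumours (adjusted p = 0.02). The 66cl4 call ended without 66cl4 mouse 2 or 67NR mouse 1 or 2 (0.40 to 0.50, adjusted p 0.0573 to 0.0772), while the uncalled 4T1 minus 66cl4 difference of 0.36 became called without 4T1 mouse 3 or 66cl4 mouse 2 (0.45 to 0.46, adjusted p 0.0376 to 0.045).

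Demethylation of lanosterol gave the largest difference from 67NR among the members. Cyp51, the lanosterol demethylase, read 8.53, 8.85 and 8.85 in 4T1 tumours and 7.37, 8.09 and 7.48 in 66cl4 tumours, against 4.83, 5.79 and 5.88 in 67NR tumours. The lines did not overlap, and in 67NR mouse 1 Cyp51 was at the level of the bacterial control probe sets, so that 2 of 3 67NR arrays measured it above background. Cyp51 was higher in 4T1 than in 67NR tumours by 3.24 ± 0.28 (9.47-fold, adjusted p = 1.84e-05), in 66cl4 than in 67NR by 2.15 ± 0.28 (4.43-fold, adjusted p = 0.000321) and in 4T1 than in 66cl4 by 1.10 ± 0.28 (2.14-fold, adjusted p = 0.0112). Its other, dimmer probe set gave 3.02 for 4T1 minus 67NR and 2.76 for 66cl4 minus 67NR, both called, and 0.26 for 4T1 minus 66cl4, which was not called (adjusted p = 0.355). With the mean of its probe sets Cyp51 gave 2.23 for 4T1 minus 67NR (adjusted p = 1.18e-05). Msmo1, the methylsterol oxidase that acts after it, read 9.98, 10.30 and 10.25 in 4T1 and 8.82, 9.39 and 8.77 in 66cl4 tumours, against 7.92, 8.33 and 8.66 in 67NR tumours. No mice overlapped between lines, and Msmo1 was higher in 4T1 than in 67NR by 1.88 ± 0.22 (3.67-fold, adjusted p = 0.000111) and than in 66cl4 by 1.18 ± 0.22 (adjusted p = 0.00181). The 66cl4 minus 67NR difference was 0.69 ± 0.22 (adjusted p = 0.0311), a call that ended without 66cl4 mouse 2 or 67NR mouse 1 or 2 (0.49 to 0.70, adjusted p 0.0728 to 0.109), with the array file number as a covariate (0.80, adjusted p = 0.0817) and with the mean of its probe sets (0.50, adjusted p = 0.0527). That mean gave 1.18 for 4T1 minus 67NR (adjusted p = 0.000653). Nsdhl, a dehydrogenase of the same demethylation, read 8.98, 9.25 and 9.24 in 4T1 and 8.98, 8.95 and 8.81 in 66cl4 tumours, against 7.72, 8.05 and 8.10 in 67NR tumours. It stood above 67NR in every mouse of both other lines, by 1.20 ± 0.13 in 4T1 (adjusted p = 7.79e-05) and 0.95 ± 0.13 in 66cl4 tumours (adjusted p = 0.000417).

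Among the other enzymes after Cyp51, the reductases Tm7sf2 and Dhcr7 had another order of lines than most sterol genes. Tm7sf2, the sterol reductase that follows Cyp51, read 7.50, 7.38 and 7.98 in 4T1 and 6.43, 6.48 and 6.41 in 66cl4 tumours, against 6.62, 6.63 and 6.51 in 67NR tumours. It was higher in 4T1 tumours than in both other lines, by 1.03 ± 0.15 over 67NR (adjusted p = 0.000414) and by 1.18 ± 0.15 over 66cl4 (adjusted p = 0.000179), while the 66cl4 minus 67NR difference was -0.15 ± 0.15 (adjusted p = 0.472). Dhcr7, the reductase of the final step, read 8.44, 7.99 and 7.85 in 4T1 and 9.54, 9.74 and 9.73 in 66cl4 tumours, against 8.56, 8.72 and 8.79 in 67NR tumours. The lines did not overlap, with 66cl4 highest and 4T1 lowest. No other listed member of the sterol branch had this order of means, which 19.9% of all genes had. Dhcr7 was lower in 4T1 than in 66cl4 tumours by -1.57 ± 0.15 (2.97-fold, adjusted p = 3.94e-05), higher in 66cl4 than in 67NR by 0.97 ± 0.15 (adjusted p = 0.000941) and lower in 4T1 than in 67NR by -0.60 ± 0.15 (adjusted p = 0.0114). With the array file number as a covariate the 4T1 minus 67NR difference was 0.68 for Tm7sf2 (adjusted p = 0.0605) and -0.28 for Dhcr7 (adjusted p = 0.443), both no longer called. Ebp, a sterol isomerase, read 9.39, 9.45 and 9.40 in 4T1 and 9.36, 9.41 and 9.38 in 66cl4 tumours, against 8.45, 8.60 and 8.79 in 67NR tumours, nearly equal in both lines above 67NR (0.80 ± 0.11, adjusted p = 0.000274, and 0.77 ± 0.11, adjusted p = 0.00041). Hsd17b7, the keto reductase that works with Msmo1 and Nsdhl in the demethylation, read 8.02, 8.01 and 7.73 in 4T1 and 7.43, 7.59 and 7.20 in 66cl4 tumours, against 6.96, 7.33 and 7.25 in 67NR tumours. It was higher in 4T1 than in 67NR by 0.74 ± 0.14 (adjusted p = 0.00265) and than in 66cl4 by 0.51 ± 0.14 (adjusted p = 0.0175). That second call ended without 4T1 mouse 2 or 66cl4 mouse 3 (0.41 to 0.47, adjusted p 0.0577 to 0.0674) and with the mean of its probe sets (0.21, adjusted p = 0.156).

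**Figure D2:**
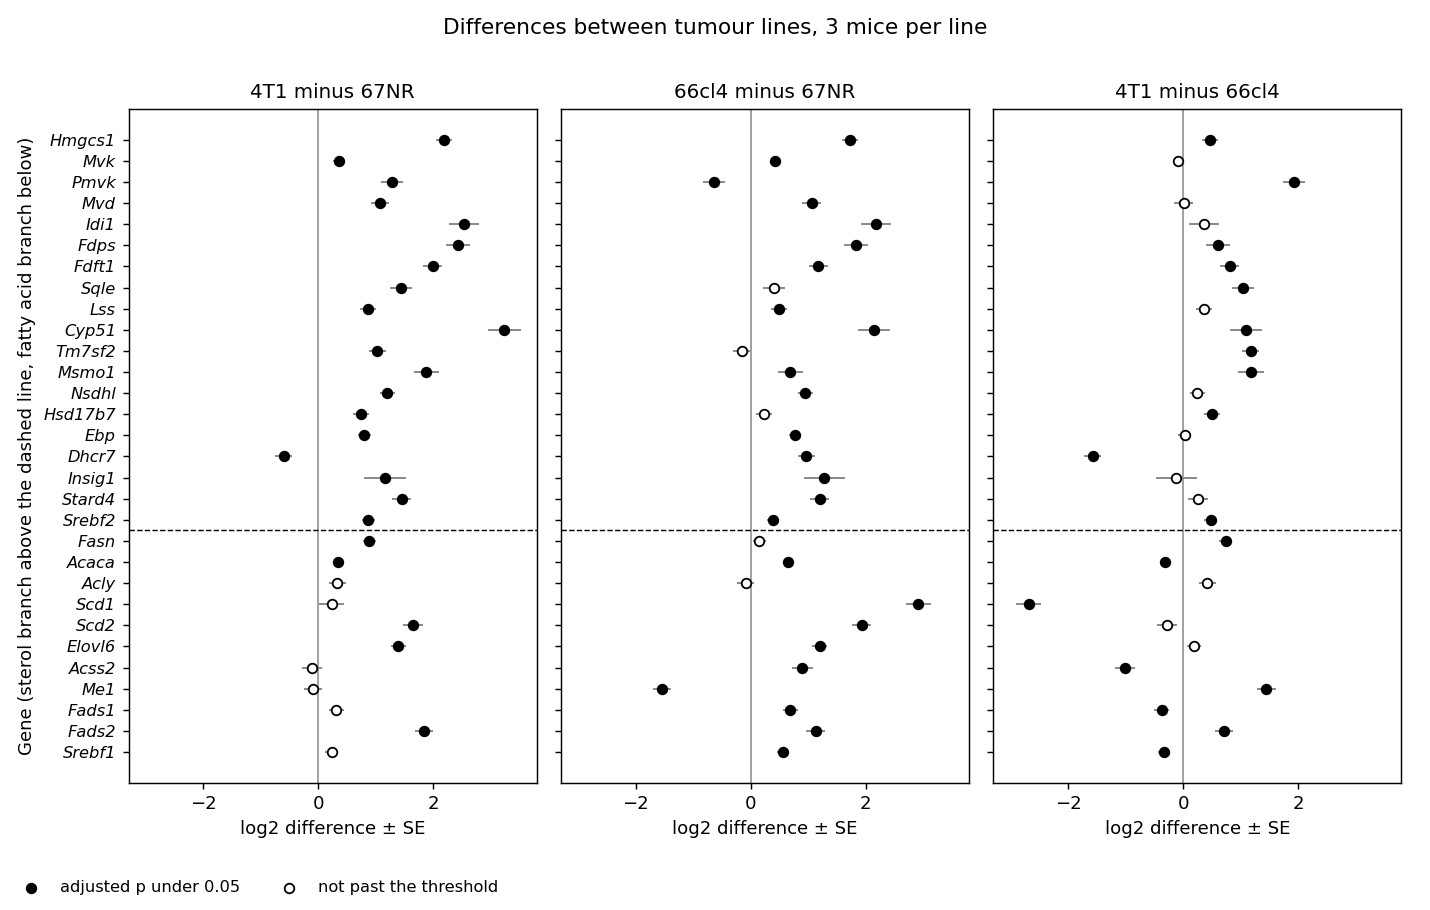
Log2 difference of each gene in 4T1 minus 67NR, 66cl4 minus 67NR and 4T1 minus 66cl4 tumours, with the standard error of the limma fit as a bar and 3 mice per line; filled circles have an adjusted p under 0.05, and the dashed line parts the sterol branch (above) from the fatty acid branch (below). Sterol genes lie right of 0 in both panels against 67NR except Dhcr7 in the left one and Pmvk and Tm7sf2 in the middle one, and Scd1 reaches 2.92 in 66cl4 minus 67NR but 0.23 in 4T1 minus 67NR.

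The regulators followed the sterol genes in part. Srebf2, the gene of SREBP-2, read 9.12, 8.90 and 9.09 in 4T1 and 8.57, 8.57 and 8.52 in 66cl4 tumours, against 8.01, 8.25 and 8.22 in 67NR tumours. Its lines did not overlap, and it was higher in 4T1 than in 67NR by 0.87 ± 0.11 (adjusted p = 0.00016), in 66cl4 than in 67NR by 0.39 ± 0.11 (adjusted p = 0.0166) and in 4T1 than in 66cl4 by 0.48 ± 0.11 (adjusted p = 0.00517). The 66cl4 call ended without 66cl4 mouse 1 or 67NR mouse 1 (0.32 to 0.38, adjusted p 0.0505 to 0.0629) and with the file number as a covariate (0.34, adjusted p = 0.107). Stard4, a cytosolic sterol carrier under SREBP control, read 9.02, 8.89 and 8.73 in 4T1 and 8.37, 9.01 and 8.50 in 66cl4 tumours, against 7.26, 7.48 and 7.55 in 67NR tumours. It was higher than in 67NR by 1.45 ± 0.17 in 4T1 (adjusted p = 0.000119) and by 1.20 ± 0.17 in 66cl4 tumours (adjusted p = 0.0005), and its 4T1 minus 66cl4 difference, 0.26, was called only without 66cl4 mouse 2 (0.45, adjusted p = 0.034). Insig1, the sterol-sensing brake whose own gene SREBPs drive, read 8.71, 8.33 and 8.27 in 4T1 and 8.35, 9.05 and 8.27 in 66cl4 tumours, against 6.55, 7.13 and 8.14 in 67NR tumours. Its 67NR mice were widely spread, and 67NR mouse 3 came close to the lowest mice of the other lines. The differences of 1.16 ± 0.36 in 4T1 (adjusted p = 0.0269) and 1.28 ± 0.36 in 66cl4 tumours (adjusted p = 0.0193) were called. The 4T1 call ended without 4T1 mouse 1 or 2 or 67NR mouse 1 or 2 (0.80 to 1.22, adjusted p 0.0511 to 0.0901). The 66cl4 call ended without 66cl4 mouse 2 or 67NR mouse 1 or 2 (0.92 to 1.21, adjusted p 0.0635 to 0.0726).

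Within 66cl4 and 67NR tumours 1 mouse held the line's highest or lowest value for most sterol genes. In 67NR mouse 1 the deviation from the line's mean was the lowest of its line for 16 of 19 sterol genes, with a median deviation of -0.22, where that mouse was lowest for 36.4% of all genes. In 67NR mouse 3 it was the highest for 15 of 19, with a median of 0.18, against 38.8% of all genes. In 66cl4 mouse 2 it was the highest for 16 of 19, with a median of 0.26, against 35.3% of all genes. In 4T1 mouse 2 it was the highest for 10 of 19, with a median of 0.09, against 29.2% of all genes. In 4T1 mouse 3 it was the lowest for 11 of 19, with a median of -0.08, against 42.8% of all genes. These medians over 1 mouse each are a description of 9 tumours. Median deviations of the fatty acid genes stayed between -0.12 and 0.07 in all 9 mice.

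**Figure D3:**
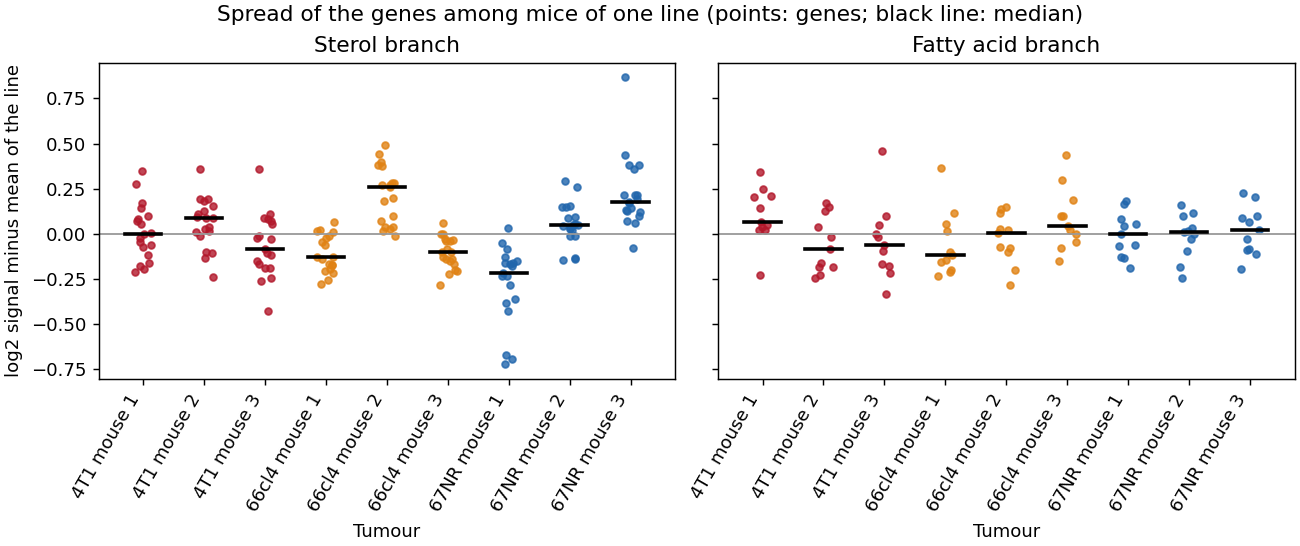
Deviation of each gene from the mean of its line, in log2 units, for the 9 mice, with 19 sterol genes on the left and 11 fatty acid genes on the right; points are genes and the black line is their median. The medians of 66cl4 mouse 2 (0.26), 67NR mouse 1 (-0.22) and 67NR mouse 3 (0.18) stand apart in the sterol branch.

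The fatty acid branch was less uniform, and 66cl4 tumours rather than 4T1 tumours stood highest for 5 of its 11 members by call. In 4T1 against 67NR tumours 5 members were higher and 0 lower, with a median difference of 0.33 (19.4% of all genes were higher and 20.5% lower). In 66cl4 against 67NR tumours 8 were higher and 1, Me1, was lower, with a median of 0.69 (20.0% and 16.0% of all genes). In 4T1 against 66cl4 tumours 3 were higher, 5 were lower and the median was -0.28 (17.9% and 23.4% of all genes). The genes higher in both 4T1 and 66cl4 than in 67NR tumours were Acaca, Scd2, Elovl6 and Fads2, against 8.29% of all genes. Those higher in 66cl4 than in both others were Acaca, Scd1, Acss2, Fads1 and Srebf1, a pattern whose share over all genes was not counted. The 4T1 minus 66cl4 calls of Acaca, Fads1 and Srebf1 ended without single mice, as given below. Without 66cl4 mouse 3 the 4T1 minus 66cl4 calls were 3 higher and 2 lower. They were 3 higher and 3 lower without 66cl4 mouse 2, with the replicate number as a block and with only the 2 lines compared. The same counts came with the array file number or the hybridization controls as a covariate. Without 4T1 mouse 2 they were 4 higher and 3 lower.

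The supply of acetyl and malonyl units changed by line and by enzyme. Fasn, fatty acid synthase, read 10.31, 10.21 and 9.99 in 4T1 and 9.31, 9.45 and 9.53 in 66cl4 tumours, against 9.21, 9.27 and 9.34 in 67NR tumours. All 4T1 mice lay above the others, which overlapped. Fasn was higher in 4T1 than in 67NR by 0.89 ± 0.11 (adjusted p = 0.000199) and than in 66cl4 by 0.74 ± 0.11 (adjusted p = 0.000618), with 0.15 ± 0.11 for 66cl4 minus 67NR (adjusted p = 0.322). Acaca, acetyl-CoA carboxylase, read 8.57, 8.53 and 8.55 in 4T1 and 8.76, 8.87 and 8.96 in 66cl4 tumours, against 8.27, 8.25 and 8.13 in 67NR tumours. It was higher in 66cl4 than in 67NR by 0.65 ± 0.09 (adjusted p = 0.00059), higher in 4T1 than in 67NR by 0.34 ± 0.09 (adjusted p = 0.0176) and lower in 4T1 than in 66cl4 by -0.32 ± 0.09 (adjusted p = 0.0234). The 4T1 minus 67NR call ended without 67NR mouse 3 (0.29, adjusted p = 0.0636), and the 4T1 minus 66cl4 call without 4T1 mouse 2 or 66cl4 mouse 2 or 3 (-0.31 to -0.27, adjusted p 0.0624 to 0.0863) and with the mean of its probe sets (-0.11, adjusted p = 0.368). Acly, which frees acetyl-CoA from citrate, read 11.19, 10.60 and 10.75 in 4T1 and 10.44, 10.56 and 10.27 in 66cl4 tumours, against 10.45, 10.49 and 10.62 in 67NR tumours. None of its differences was called, at 0.33 ± 0.15 for 4T1 minus 67NR (adjusted p = 0.124), -0.09 ± 0.15 for 66cl4 minus 67NR (adjusted p = 0.677) and 0.42 ± 0.15 for 4T1 minus 66cl4 (adjusted p = 0.053), of which the last was called without 4T1 mouse 2 (0.55, adjusted p = 0.0244). Acss2, which makes acetyl-CoA from acetate, read 6.82, 6.70 and 6.83 in 4T1 and 7.56, 7.59 and 8.23 in 66cl4 tumours, against 6.70, 6.99 and 6.98 in 67NR tumours. Only 66cl4 mice stood apart, with 0.90 ± 0.18 over 67NR (adjusted p = 0.00314) and -1.01 ± 0.18 for 4T1 minus 66cl4 (adjusted p = 0.00141). Me1, malic enzyme, a source of NADPH for the synthesis, read 8.28, 8.20 and 7.74 in 4T1 and 6.73, 6.54 and 6.57 in 66cl4 tumours, against 8.03, 8.07 and 8.39 in 67NR tumours. It was the member lower in 66cl4 tumours, by -1.54 ± 0.16 against 67NR (2.91-fold, adjusted p = 7.89e-05), and higher in 4T1 than in 66cl4 by 1.45 ± 0.16 (2.74-fold, adjusted p = 8.07e-05).

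Desaturation and elongation of saturated chains differed by gene, and Scd1 had the largest difference of the branch. Scd1, which places the first double bond in palmitate and stearate, read 8.17, 8.17 and 8.86 in 4T1 and 11.46, 10.81 and 11.02 in 66cl4 tumours, against 8.04, 8.33 and 8.14 in 67NR tumours. Every 66cl4 mouse stood more than 1 log2 unit above every other mouse, and 4T1 and 67NR mice overlapped. Scd1 was higher in 66cl4 than in 67NR by 2.92 ± 0.22 (7.59-fold, adjusted p = 1.08e-05) and lower in 4T1 than in 66cl4 by -2.69 ± 0.22 (6.47-fold, adjusted p = 1.11e-05), with 0.23 ± 0.22 for 4T1 minus 67NR (adjusted p = 0.44). Its second probe set gave 3.71, -3.62 and 0.09 for the same differences. Scd2, its close relative, read 12.73, 12.30 and 12.42 in 4T1 and 12.56, 12.66 and 13.06 in 66cl4 tumours, against 11.01, 10.84 and 10.63 in 67NR tumours. Here 4T1 and 66cl4 mice overlapped and both lay above 67NR, by 1.65 ± 0.17 in 4T1 (3.15-fold, adjusted p = 4.9e-05) and 1.93 ± 0.17 in 66cl4 tumours (3.82-fold, adjusted p = 2.7e-05). The desaturase genes are closely similar in sequence, and whether probes share their transcripts was not tested. Elovl6, which lengthens palmitate, read 9.87, 9.48 and 9.65 in 4T1 and 9.32, 9.59 and 9.52 in 66cl4 tumours, against 8.27, 8.39 and 8.16 in 67NR tumours. It was higher than in 67NR by 1.39 ± 0.13 in 4T1 (2.63-fold, adjusted p = 2.81e-05) and by 1.20 ± 0.13 in 66cl4 tumours (2.30-fold, adjusted p = 0.000101), with 4T1 and 66cl4 overlapping.

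The polyunsaturated desaturases did not move alike. Fads2, the first enzyme of that route, read 8.50, 8.62 and 8.23 in 4T1 and 7.53, 7.77 and 7.93 in 66cl4 tumours, against 6.65, 6.36 and 6.81 in 67NR tumours. The lines did not overlap, and Fads2 was higher in 4T1 than in 67NR by 1.84 ± 0.16 (3.59-fold, adjusted p = 1.76e-05), in 66cl4 than in 67NR by 1.13 ± 0.16 (2.20-fold, adjusted p = 0.000472) and in 4T1 than in 66cl4 by 0.71 ± 0.16 (adjusted p = 0.00566). Fads1, the partner desaturase, read 9.33, 9.46 and 9.14 in 4T1 and 9.54, 9.83 and 9.68 in 66cl4 tumours, against 9.16, 8.81 and 9.02 in 67NR tumours. It was higher in 66cl4 than in 67NR by 0.69 ± 0.13 (adjusted p = 0.00287) and lower in 4T1 than in 66cl4 by -0.37 ± 0.13 (adjusted p = 0.0457), and 4T1 minus 67NR was 0.31 ± 0.13 (adjusted p = 0.0876), called without 4T1 mouse 3 (0.40, adjusted p = 0.0491) and with the mean of its probe sets (0.38, adjusted p = 0.0328). The 4T1 minus 66cl4 call ended without any of 4T1 mice 1 and 3, 66cl4 mice 2 and 3 and 67NR mouse 3 (-0.38 to -0.29, adjusted p 0.0631 to 0.151) and with the mean of its probe sets (-0.32, adjusted p = 0.0582). Srebf1, the gene of SREBP-1, read 9.91, 9.68 and 9.94 in 4T1 and 10.22, 10.09 and 10.19 in 66cl4 tumours, against 9.69, 9.62 and 9.52 in 67NR tumours. The 66cl4 mice were highest, by 0.56 ± 0.11 over 67NR (adjusted p = 0.0028) and -0.33 ± 0.11 for 4T1 minus 66cl4 (adjusted p = 0.0332), while 4T1 minus 67NR was 0.23 ± 0.11 (adjusted p = 0.117). That 4T1 minus 66cl4 call ended without 4T1 mouse 2, 66cl4 mouse 1 or 3 or 67NR mouse 2 (-0.33 to -0.24, adjusted p 0.0514 to 0.119).

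**Figure D4:**
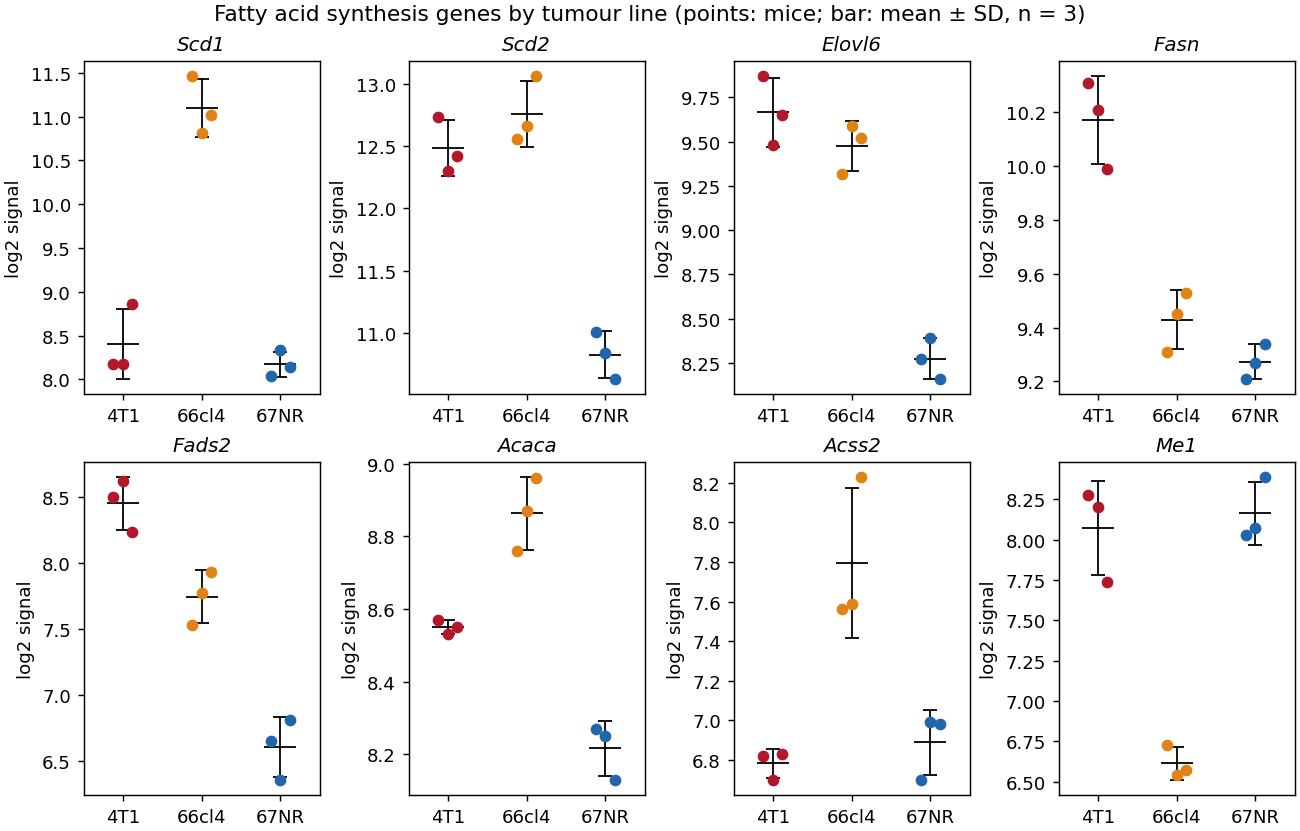
Log2 signal of 8 fatty acid synthesis genes in the 3 mice of each line; points are mice, the horizontal line is the mean and the bar the SD, and each panel has its own axis. Scd1 stands near 11 in 66cl4 and near 8 in the other lines, Scd2 and Elovl6 are high in 4T1 and 66cl4, Fasn is high in 4T1, and Me1 is low in 66cl4.

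Of 13 other genes of sterol synthesis and its control tested, 9 were higher and 1 lower for 4T1 minus 67NR (19.4% and 20.5% of all genes). In 66cl4 against 67NR tumours 7 were higher and 0 lower (20.0% and 16.0% of all genes), and without 66cl4 mouse 2 or 67NR mouse 1 the higher ones were 3. In 4T1 against 66cl4 tumours 4 were higher and 2 lower (17.9% and 23.4% of all genes), and the higher ones were 1 without 66cl4 mouse 1 and 2 without 4T1 mouse 2. Sc5d, the desaturase that acts before Dhcr7, read 8.52, 9.28 and 8.89 in 4T1 and 8.07, 8.56 and 8.04 in 66cl4 tumours, against 6.56, 6.84 and 6.96 in 67NR tumours. It lay above 67NR in all mice of both lines, by 2.11 ± 0.21 in 4T1 (4.31-fold, adjusted p = 4.42e-05) and 1.44 ± 0.21 in 66cl4 tumours (2.71-fold, adjusted p = 0.000609). Aacs, which activates acetoacetate, was higher in 4T1 than in 67NR by 1.12 ± 0.17 (adjusted p = 0.000668), and Mbtps1, the protease that first cuts the SREBPs, was higher in 66cl4 than in 67NR by 1.00 ± 0.10 (adjusted p = 8.83e-05). Scap, the escort of the SREBPs, was higher in 4T1 than in 67NR by 0.71 ± 0.14 (adjusted p = 0.00284) and gave 0.38 ± 0.14 for 66cl4 minus 67NR (adjusted p = 0.0587), which was called without 4T1 mouse 1 or 3 (adjusted p 0.0338 to 0.0368). Insig2, the second INSIG gene, gave 0.10 ± 0.13 (adjusted p = 0.554) and -0.01 ± 0.13 (adjusted p = 0.97) for these comparisons. The lower gene in 4T1 tumours, named after its value was seen, was Npc1, which exports sterol from lysosomes (-0.83 ± 0.16, adjusted p = 0.00228).

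Of 26 other fatty acid synthesis genes tested, 9 were higher and 2 lower for 4T1 minus 67NR (19.4% and 20.5% of all genes). In 66cl4 against 67NR tumours 11 were higher and 3 lower (20.0% and 16.0% of all genes), which became 8 and 0 without 66cl4 mouse 1. In 4T1 against 66cl4 tumours 5 were higher and 6 lower, shares near the 17.9% and 23.4% of all genes. Slc25a1, which carries citrate out of mitochondria for this synthesis, read 9.38, 9.31 and 9.04 in 4T1 and 9.16, 9.35 and 9.08 in 66cl4 tumours, against 7.21, 6.81 and 6.95 in 67NR tumours. It was higher than in 67NR by 2.25 ± 0.14 in 4T1 (4.77-fold, adjusted p = 2.27e-06) and 2.21 ± 0.14 in 66cl4 tumours (4.61-fold, adjusted p = 4.4e-06), whereas Acly, which acts on that citrate, was called in neither. Elovl7, an elongase of saturated chains, was not above background in 67NR tumours and was at least 9.34-fold higher in 4T1 tumours (means 8.17 and 4.69, adjusted p = 7.37e-08). Acsl4, which activates arachidonate, was higher in 4T1 than in 67NR by 2.20 ± 0.12 (adjusted p = 1.15e-06) and than in 66cl4 by 2.40 ± 0.12 (adjusted p = 5.79e-07). Agpat2, of glycerolipid assembly, was higher than in 67NR by 1.12 ± 0.09 in 4T1 (adjusted p = 1.47e-05) and 1.41 ± 0.09 in 66cl4 tumours (adjusted p = 5.54e-06). Acacb, the carboxylase at the mitochondrion, was higher in 66cl4 than in 67NR by 1.40 ± 0.15 (adjusted p = 8.28e-05).

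Of 10 tested genes around sterol export, ester cleavage and oxysterols, 6 were lower and 2 higher in 4T1 than in 67NR tumours, where 20.5% and 19.4% of all genes were. The genes have different tasks, so that the counts do not stand for export or storage as such. In 66cl4 against 67NR tumours 5 were lower and 2 higher (16.0% and 20.0% of all genes), but the lower ones were 2 without 66cl4 mouse 1 or 2 or 67NR mouse 3, and 3 without 67NR mouse 1 or 2. In 4T1 against 66cl4 tumours 4 were lower and 0 higher (23.4% and 17.9% of all genes), with 2 lower without 4T1 mouse 3 or 66cl4 mouse 3. Nceh1, which hydrolyses cholesterol esters, read 7.68, 8.04 and 7.65 in 4T1 and 8.98, 8.99 and 8.97 in 66cl4 tumours, against 9.22, 9.81 and 9.51 in 67NR tumours. The lines did not overlap, and Nceh1 was lower in 4T1 than in 67NR by -1.73 ± 0.16 (3.31-fold, adjusted p = 2.83e-05). Abca1, which exports cholesterol, was lower in 4T1 than in 67NR by -0.82 ± 0.25 (adjusted p = 0.0239), a call that ended without 4T1 mouse 1 or 67NR mouse 1 or 2 (-0.83 to -0.60, adjusted p 0.0607 to 0.0854), and Abcg1, of the same task, by -1.17 ± 0.25 (adjusted p = 0.00478). Cyp27a1, which makes an oxysterol, was lower in 4T1 by -1.65 ± 0.27 (adjusted p = 0.000992) and Apoe, which carries lipid, by -1.10 ± 0.20 (adjusted p = 0.00193). Nr1h3, the gene of the oxysterol receptor LXR alpha, gave -0.55 ± 0.21 in 4T1 (adjusted p = 0.0628) and was lower in 66cl4 than in 67NR by -0.71 ± 0.21 (adjusted p = 0.0258). The 66cl4 call ended without 66cl4 mouse 1 or 2 or 67NR mouse 1 or 3 (-0.74 to -0.61, adjusted p 0.0545 to 0.0907), and the 4T1 difference became called without 4T1 mouse 2 or 67NR mouse 2 (-0.74 to -0.70, adjusted p 0.0215 to 0.044). The 2 genes higher in 4T1 tumours, named after their values were seen, were Ch25h, which makes another oxysterol (2.24 ± 0.58, adjusted p = 0.0116), and Lpcat3, a phospholipid acyltransferase (0.55 ± 0.14, adjusted p = 0.0114). Ch25h was above background on 2 of 3 67NR arrays, and without 67NR mouse 1, the array below it, the difference was 1.59 (adjusted p = 0.0298).

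Of 14 tested genes of fatty acid uptake, storage and oxidation, 3 were higher and 3 lower for 4T1 minus 67NR, and 3 higher and 2 lower for 66cl4 minus 67NR, shares near those of all genes (19.4% and 20.5%, and 20.0% and 16.0%). In 4T1 against 66cl4 tumours 1 was higher and 5 lower (17.9% and 23.4% of all genes), with 3 lower without 66cl4 mouse 1. Cd36, which takes up fatty acids, read 5.04, 4.75 and 5.46 in 4T1 and 9.15, 8.75 and 7.94 in 66cl4 tumours, against 9.54, 8.80 and 9.09 in 67NR tumours. It was near background in 4T1 tumours, where 2 of 3 arrays measured it, and lower there than in 67NR by -4.06 ± 0.31 (adjusted p = 8.65e-06). Cpt1a, the gate of mitochondrial oxidation, was lower in 4T1 than in 67NR by -1.06 ± 0.13 (adjusted p = 0.000151) and than in 66cl4 by -1.03 ± 0.13 (adjusted p = 0.00017). Acadm, a dehydrogenase of that oxidation, was higher in 66cl4 than in 67NR by 1.21 ± 0.13 (adjusted p = 0.000103).

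Markers of macrophages, endothelium, fibroblasts and epithelium differed between the lines, and those of epithelium can be made by the carcinoma cells themselves. For 4T1 minus 67NR 19.4% of all genes were higher and 20.5% lower, and for 66cl4 minus 67NR 20.0% and 16.0%. The counts below are to be read beside these shares. Of 10 macrophage markers 9 were lower and 0 higher in 4T1 than in 67NR, and 4 were higher and 1 lower in 66cl4 than in 67NR, with log2 summed signals of 14.02 to 14.19 in 4T1, 15.00 to 15.47 in 66cl4 and 14.99 to 15.24 in 67NR tumours. Of 8 endothelial markers 7 were lower and 1 higher in 4T1 than in 67NR, and likewise 7 and 1 in 66cl4, with sums of 10.47 to 10.65 in 4T1, 9.88 to 10.24 in 66cl4 and 11.92 to 12.59 in 67NR tumours. Macrophages and endothelium express several of the export and uptake genes above, and the part of these cells in the results was not tested. Against 67NR tumours 6 of 7 epithelial markers were higher in 4T1 and 1 in 66cl4. Their sums were 14.49 to 14.73 in 4T1, 12.85 to 13.21 in 66cl4 and 8.47 to 8.68 in 67NR tumours. Krt8 was the marker higher in 66cl4 tumours and made up nearly all of the sum there (mean 13.01, against 6.74 in 67NR tumours), while 6 were not called. Cdh1 was not above background in 66cl4 or 67NR tumours. Of 7 fibroblast markers 4 were higher and 3 lower in 4T1 than in 67NR, and 4 higher and 1 lower in 66cl4 than in 67NR, with sums of 13.65 to 14.78 in 4T1, 12.97 to 13.59 in 66cl4 and 12.49 to 12.81 in 67NR tumours. Of 11 proliferation genes 2 were higher and 0 lower in 4T1 than in 67NR, and 1 higher and 2 lower in 66cl4 than in 67NR. For the proliferation genes this was near or below the shares of all genes. Several of these counts rested on single mice. In 66cl4 against 67NR tumours the fibroblast markers that were higher fell to 1 without 66cl4 mouse 2 or 67NR mouse 1 or 2, when Dcn, Col1a1 and Col3a1 lost their calls, and the macrophage markers to 1 or 2 without 66cl4 mouse 2 or 3 or any 67NR mouse. In the same comparison the epithelial markers that were higher were 2 without 66cl4 mouse 2 or 67NR mouse 2. The part of these differences in the sterol results was not tested.

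Fat cells and milk-secreting cells, which also make fatty acids, were checked through their markers. Of 14 adipocyte markers 11 were measured, and Adipoq, Cidec, Cidea, Lep and Pck1 were not above background in 4T1 or 67NR tumours. Of 6 adipocyte markers tested, 0 were higher and 2 lower in 4T1 than in 67NR tumours, likewise in 66cl4 than in 67NR, and 0 were called in 4T1 against 66cl4. Of all genes 20.5% and 16.0% were lower in the comparisons of 4T1 and 66cl4 with 67NR, and 41.3% were called in 4T1 against 66cl4. The measured markers' log2 summed signal was 9.17 to 10.22 in 4T1 and 10.10 to 11.25 in 66cl4 tumours, against 12.32 to 12.59 in 67NR tumours. Fabp4 made up 38.6 to 56.7% of this sum in 4T1, 45.6 to 68.2% in 66cl4 and 89.7 to 92.0% in 67NR tumours, and without it the log2 sum was 8.38 to 9.16 in 4T1 and 8.52 to 10.33 in 66cl4 tumours, against 8.84 to 9.30 in 67NR tumours. Fabp4, a fatty acid carrier of adipocytes that endothelium and macrophages also express, read 7.79, 8.76 and 9.27 in 4T1 and 10.18, 8.97 and 9.62 in 66cl4 tumours, against 12.43, 12.18 and 12.36 in 67NR tumours. It was lower than in 67NR by -3.71 ± 0.37 in 4T1 (adjusted p = 4.52e-05) and by -2.73 ± 0.37 in 66cl4 tumours (adjusted p = 0.000396). Adipoq, made by adipocytes, read 3.43, 3.43 and 4.71 in 4T1 and 6.99, 4.88 and 3.22 in 66cl4 tumours, against 3.69, 3.68 and 3.38 in 67NR tumours, so that 66cl4 mouse 1 alone was above background. Car3, an enzyme abundant in adipocytes and named after its value was seen, read 4.36, 4.28 and 7.61 in 4T1 and 9.45, 7.84 and 5.50 in 66cl4 tumours, against 6.23, 5.49 and 4.75 in 67NR tumours. Its 66cl4 minus 67NR difference of 2.11 ± 1.06 was not called (adjusted p = 0.153), and without 66cl4 mouse 3 it was 3.16 and called (adjusted p = 0.0362). Of 10 mammary secretory markers 6 were not above background in 4T1 tumours, 6 in 66cl4 tumours and 7 in 67NR tumours, with the casein genes Csn2, Csn1s1 and Csn1s2a among them in each line. Csn3, another casein gene, read 5.46, 4.56 and 5.49 in 4T1 and 8.80, 7.88 and 8.65 in 66cl4 tumours, against 9.90, 10.99 and 11.21 in 67NR tumours, and was lower than in 67NR by -5.53 ± 0.38 in 4T1 (adjusted p = 4.8e-06) and by -2.26 ± 0.38 in 66cl4 tumours (adjusted p = 0.00142). The part of these cells in the fatty acid results was not tested.

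Over the 30 members and 3 comparisons 68 differences were called, and 54 kept their call without each mouse in turn. In all 68 the mice of the compared lines did not overlap. These differences were picked by their call, so that the lack of overlap is no separate support. The same shares were not counted over all called genes. With the array file number as a covariate the 4T1 minus 67NR calls of the sterol branch were 15 higher and 0 lower. Over all 13410 genes that fit called 1469 higher and 1192 lower. With the hybridization controls as a covariate the sterol calls were 14 higher and 0 lower, and those over all genes 1151 higher and 1000 lower. Of 39 other probe sets of members, 29 passed the filter on dim probe sets and were tested. Of these 23 belonged to members called in 4T1 against 67NR tumours, of which 21 had the same direction and 18 were called in it. For 66cl4 against 67NR tumours 23 of 25 had the same direction and 18 were called in it, and for 4T1 against 66cl4 tumours 16 of 16 had it and 7 were called. Of the tested ones 0 were called in the opposite direction.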

How the data were processed

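Gene expression was measured on 9 Affymetrix arrays, 1 per mouse and 3 per line. The authors deposited 1 log2 value for each of 45101 probe sets, from 2.42 to 14.8, and the log2 scale was read from the values. The probe summary and normalization are not given in the sources used here, and the values were used as deposited. Arrays give no read depth, and their number limits the precision. Of the probe sets 34958 had 1 gene symbol in the platform annotation, 932 had several and 9211 are unnamed here, and 34754 of those with 1 symbol were matched through Entrez identifiers to a RefSeq gene table (GRCm38.p6). The brightest probe set stood for each of 18194 genes. Genes above the 40th percentile of an array on at least 3 arrays, 13410 in all, were tested with limma 3.58.1 in R 4.3.3 (lmFit, eBayes, group means, 6 residual and 3.63 prior degrees of freedom, two-sided). A gene at or below the highest of 27 bacterial control probe sets on all arrays of a line was not above background there, and its fold is a lower bound: the bright line's mean against the mean of that control level per array. An exact permutation test of 3 against 3 mice could not go below p = 0.1.

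The members were listed by name, and members, gene lists and tests were chosen with earlier results of these data known. All measured members are named, those called with a difference of at least 1 are described with the other called ones, and other lists are named by smallest p, at most 4 per comparison, plus Insig2, Scap, Nr1h3, Abca1, Adipoq and Fabp4. Alternatives were quantile normalization, no filter and a stricter one, the mean of probe sets, a replicate block, the array file number, an intensity trend, each mouse left out, only the lines compared, other probe sets and, chosen after seeing the data, the hybridization controls as a covariate. On simulated data for 4T1 minus 67NR over 13410 genes, the fit recovered 81% of changes of 1 log2 unit and 98% of changes of 2, with 16 false calls. The simulation drew each gene independently and changed far fewer genes than the 39.9% called in the real comparison. It held no shift common to the genes of a mouse and no trend along the file numbers. Its figures therefore check the fit and do not give the recovery or false calls of these data. Protein sequences were not used here. Promoter windows are RefSeq's. Replicate numbers did not pair mice.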

Additional observations from a re-analysis of the deposited data

How the results depend on the processing

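Of 1707 member differences recomputed under an alternative, 1575 kept direction and side of the threshold, 97 lost their call, 13 gained one and 22 changed sign. Changes of sign were in differences that were not called, or in dim other probe sets. For 4T1 minus 66cl4 they were Mvk with the hybridization controls as a covariate (0.0013) and by its other probe set (0.0626), Mvd without 4T1 replicate 2 (-0.0836) and without 66cl4 replicate 1 or 3 (-0.0623 each), Lss by its second probe set (-0.087), and Insig1 with the file number (0.0224), without each mouse in turn (-0.2635 to 0.1232, the higher value without 66cl4 replicate 2) and with the hybridization controls (0.2737). For 4T1 minus 67NR they were Fdft1 (-0.0763) and Lss (-0.0195) by dim probe sets, Scd1 with the file number (-0.514), without each mouse in turn (-0.0002 to 0.3469, the lower value without 4T1 replicate 3) and with the hybridization controls (-0.0065), Acss2 with the file number (0.1995) and with the hybridization controls (0.2808), and Me1 with the file number (0.1337), with the hybridization controls (0.1027) and without each mouse in turn (-0.1903 to 0.0788, above 0 without 4T1 replicate 3, 0.0788, or 67NR replicate 3, 0.0257). For 66cl4 minus 67NR it was Fdft1 by 2 dim probe sets (-0.1479 and -0.0773). The cause was not tested.

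Leaving out each mouse, the sterol calls were 17 to 19 for 4T1 minus 67NR, 12 to 16 for 66cl4 minus 67NR and 8 to 13 for 4T1 minus 66cl4, and the fatty acid calls 4 to 6, 9 to 9 and 5 to 8. Over all genes they were 4430 to 5257, 3819 to 5215 and 4614 to 5391. The 4T1 minus 67NR calls over all genes, 5348, fell to 2661 with the file number and 2151 with the hybridization controls as a covariate. With the file number the calls of Mvk (0.40, adjusted p = 0.16), Insig1 (1.57, adjusted p = 0.118) and Acaca (0.43, adjusted p = 0.0938) in 4T1 minus 67NR also ended, as did Pmvk in 66cl4 minus 67NR (-0.32, adjusted p = 0.269) and Acaca and Fads1 in 4T1 minus 66cl4 (-0.28 each, adjusted p = 0.061 and 0.14). With the hybridization controls the calls of Mvk, Tm7sf2, Hsd17b7, Dhcr7, Insig1 and Acaca in 4T1 minus 67NR, Pmvk and Srebf2 in 66cl4 minus 67NR, and Hsd17b7, Acaca and Fads1 in 4T1 minus 66cl4 ended. With the mean of probe sets in place of the brightest the calls of Mvk in both comparisons with 67NR (0.24 each), Msmo1 in 66cl4 minus 67NR (0.50) and Hsd17b7 (0.21), Acaca (-0.11) and Fads1 (-0.32) in 4T1 minus 66cl4 ended, those of Scd2 in 4T1 minus 66cl4 (-0.43) and Fads1 in 4T1 minus 67NR (0.38) were gained, and 6 called differences of Fdps, Fdft1, Cyp51 and Msmo1 moved by over 1.5 times.

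Replicates with the same number did not deviate together (correlations of -0.115 to 0.159 over 9 pairs, against -0.182 to 0.161 over 18 pairs of other numbers). With the replicate number as a block the sterol calls were 19, 16 and 10, the fatty acid calls 5, 9 and 6, and all genes 5058, 4504 and 5180, for 4T1 minus 67NR, 66cl4 minus 67NR and 4T1 minus 66cl4. The comparison of related proteins was not run. Each line is 1 line with 3 mice, the file numbers of 67NR lie above those of the other lines, and dim probe sets near the control level understate differences.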
